A study of Mus musculus with 46 samples.

Results

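The elements described here are the single DNA fragments of the Tfcp2l1 Upstream library, each measured alone in front of a reporter in E14TG2a mouse embryonic stem cells. They were taken from the deposited table of all Upstream constructs by its Tfcp2l1 locus entry, with 1 value per fragment and strand. A value was found for 249 of the 258 fragments named there, out of 480 single fragments with a value in all Upstream libraries of the series. They comprise 224 candidate cis-regulatory elements (cCREs, names starting with E) and 25 promoters (names starting with P). Each is 450 bp long by its start and end, and together they span 2.7 Mb of mouse chromosome 1, from 117851628 to 120550161 in mm10. Both strands had a value for 218 fragments, which gave 467 combinations of fragment and strand, called fragment-strands below, and 32 named fragment-strands had none.

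The 3 samples are biological replicates of complementary DNA (cDNA) from cells grown in 2i+LIF medium and nucleofected with this library, with RNA taken after 24 h. The cells came from a single established line and carried no stated alteration other than the transient plasmids, so the fragments were read outside their chromosomal surroundings. The Tfcp2l1 pools were transfected apart from the libraries of the other loci. An activity is the deposited ratio of a construct's barcodes in cDNA to those in plasmid DNA. The ratio has no unit, its scaling is not given in the sources used here, and no read or barcode counts stand behind the values here, so their depth is unknown.

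A reporter plasmid of this kind produces RNA when the inserted DNA binds transcription factors and recruits RNA polymerase. Promoters do so at the starts of genes, and many active enhancers also start transcription of short RNAs from both of their strands. Tfcp2l1 itself encodes a transcription factor that helps to maintain the naive pluripotent state in which these cells are held by 2i+LIF, and its neighbours on the chromosome include widely expressed genes and genes restricted to developing or differentiated tissues.

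Upstream sequences from RefSeq (GRCm38.p6) show what some of the strongest and most strand-dependent promoter fragments contain, with the promoter of Tfcp2l1 itself added for contrast. For 11 promoter fragments, a RefSeq promoter window lay wholly inside the fragment. The 250 bases before the listed start are given 5′ to 3′ on the strand of the gene, with capitals marking, on either strand, the Sp motif GGGCGG, the Klf motif GGGCGTGG, the CCAAT box, the E-box motif CACGTG and the TATA motif TATAAA. Next come the promoters of Nifk (chr1:118321593-118321842, strand +), Tmem185b (chr1:119525904-119526153, strand +), Ralb (chr1:119504783-119505032, strand -), Tmem177 (chr1:119913184-119913433, strand -), Cfap221 (chr1:119997233-119997482, strand -) and Tfcp2l1 (chr1:118627695-118627944, strand +).
P007 Nifk: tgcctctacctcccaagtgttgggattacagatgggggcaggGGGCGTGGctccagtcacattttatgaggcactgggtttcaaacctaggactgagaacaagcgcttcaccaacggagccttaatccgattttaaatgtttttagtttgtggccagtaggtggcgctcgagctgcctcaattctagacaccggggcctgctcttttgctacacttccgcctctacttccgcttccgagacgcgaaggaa
P019 Tmem185b: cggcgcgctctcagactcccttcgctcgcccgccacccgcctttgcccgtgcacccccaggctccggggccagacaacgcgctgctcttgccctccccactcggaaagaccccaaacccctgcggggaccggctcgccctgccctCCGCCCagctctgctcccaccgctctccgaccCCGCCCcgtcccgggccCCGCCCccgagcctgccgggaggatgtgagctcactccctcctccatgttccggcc
P018 Ralb: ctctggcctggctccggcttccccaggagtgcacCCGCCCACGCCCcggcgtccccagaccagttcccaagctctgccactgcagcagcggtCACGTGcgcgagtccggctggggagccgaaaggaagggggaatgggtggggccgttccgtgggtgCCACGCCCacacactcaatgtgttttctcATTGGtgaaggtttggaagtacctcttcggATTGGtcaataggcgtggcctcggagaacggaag
P024 Tmem177: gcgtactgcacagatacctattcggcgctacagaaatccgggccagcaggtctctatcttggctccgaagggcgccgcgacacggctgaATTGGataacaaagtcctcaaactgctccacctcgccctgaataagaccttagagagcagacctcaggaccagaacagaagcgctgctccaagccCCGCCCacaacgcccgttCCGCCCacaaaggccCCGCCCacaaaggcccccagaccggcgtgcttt
P025 Cfap221: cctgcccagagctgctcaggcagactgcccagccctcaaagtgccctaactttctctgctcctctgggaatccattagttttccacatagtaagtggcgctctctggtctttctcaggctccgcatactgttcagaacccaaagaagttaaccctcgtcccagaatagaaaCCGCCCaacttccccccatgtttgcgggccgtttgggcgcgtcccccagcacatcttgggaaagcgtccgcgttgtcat
P011 Tfcp2l1: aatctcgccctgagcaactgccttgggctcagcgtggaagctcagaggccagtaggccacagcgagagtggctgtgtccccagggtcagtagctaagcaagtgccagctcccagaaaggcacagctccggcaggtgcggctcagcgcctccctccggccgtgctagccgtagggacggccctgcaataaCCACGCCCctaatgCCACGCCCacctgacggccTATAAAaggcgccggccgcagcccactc
In these stretches Tmem185b and Tmem177 each hold 3 copies of GGGCGG, Ralb and Tmem177 are those with CCAAT, and the Tfcp2l1 stretch has a TATAAA and 2 copies of GGGCGTGG. A copy of GGGCGG and a copy of GGGCGTGG overlap in Ralb. Over the whole 300-base windows, GGGCGG was found in 7 of the 11 fragments, against 35.7% of all 32851 promoter windows of the table, and CCAAT in 2 of 11, against 37.4%. TATAAA was found in 1 of the 11, against 13.6% of all windows, and GGGCGTGG in 3, against 5.33%. These matches describe the letters only.

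Most single fragments gave little reporter RNA, and a small set gave a great deal. Over the 466 fragment-strands with a value above 0 in every replicate, the geometric mean activity ran from 0.0124 to 31.2, with a median of 0.0972 and quartiles of 0.0504 and 0.267. The library median was 0.0855, 0.103 and 0.108 in replicates 1, 2 and 3. An activity above 1 in all 3 replicates was reached by 40 fragment-strands, from 20 cCREs and 9 promoters. The remaining fragment-strand, E303-, had activities of 0, 0.0572 and 0.00792 and entered no log2 test.

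The replicates agreed most closely where activity was high. Pearson's r of log2 activity over the 466 fragment-strands was 0.93 between replicates 1 and 2, 0.94 between 1 and 3 and 0.96 between 2 and 3, given as a description since all fragments shared the same cells and plasmids. The median SD over replicates was 0.69 on the log2 scale among the 156 least active fragment-strands and 0.18 among the 156 most active. Within the least active ones the median activity was 0.0251 in replicate 1 against 0.0535 and 0.0486 in replicates 2 and 3. Differences among silent fragments are therefore much less precisely known than differences among active ones.

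Each fragment-strand was set against the library median of its own replicate with limma and Benjamini-Hochberg (BH) adjustment at 0.05. Of the 466 tested, 188 were higher than the median (40.3%) and 158 lower (33.9%). Among cCREs 166 of 419 were higher (39.6%) and 146 lower (34.8%), shares close to those of the whole library. Among promoters 22 of 47 were higher (46.8%) and 12 lower (25.5%). A difference between the classes in these shares was not tested. At least a 2-fold difference from the median passed the test for 115 above and 9 below. The table also lists an entry named eempty, whose activity alone was 0.161, 0.186 and 0.190. That entry lay above the library median in each replicate. With it in place of the median, an alternative added after the data were seen, 128 fragment-strands were higher and 273 lower.

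**Figure D1:**
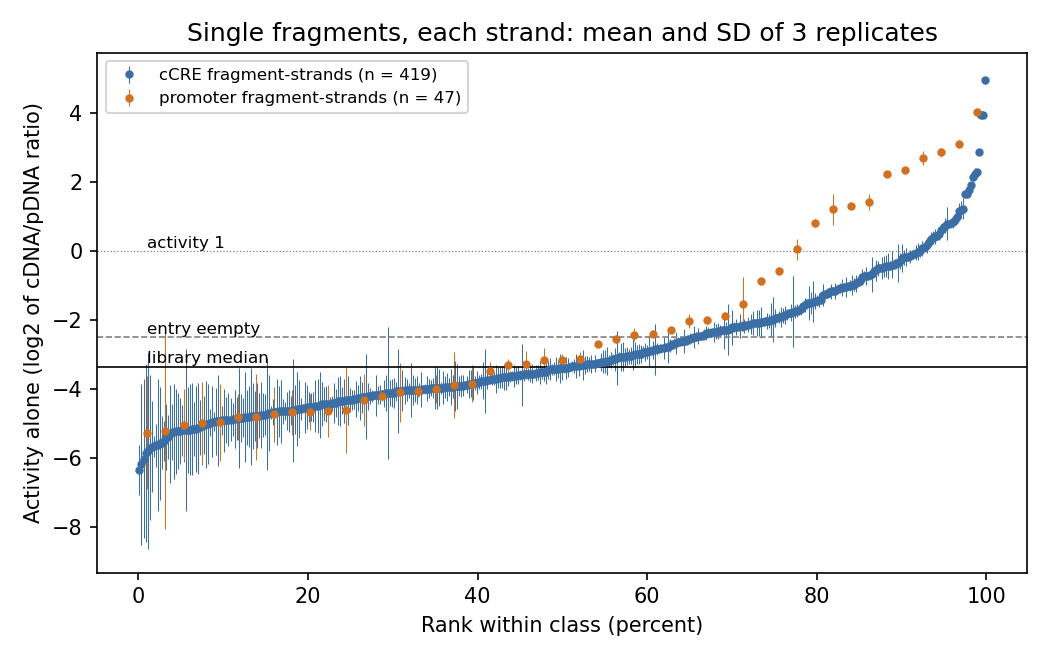
Activity of every fragment-strand alone (log2 of the cDNA/pDNA ratio, vertical axis; mean with SD over 3 replicates) against its rank within its class in percent (horizontal axis), for 419 cCRE (blue) and 47 promoter (orange) fragment-strands. Both classes follow each other in the lower part of their ranks, and the promoters lie above the cCREs in the upper part except at the very top.

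Among cCREs the 10 highest fragment-strands came from 7 fragments, of which 4 lie between genes and 3 within or across a protein-coding gene. The strongest of all fragments was E017 (118311123 to 118311573), which covers an end of the annotated span of Tsn, the gene of the nucleic acid-binding protein translin, at -316.6 kb from the Tfcp2l1 start. On strand - its activities were 31.3, 29.0 and 33.5, and on strand + they were 14.9, 15.0 and 16.9. Both strands were far above every other cCRE but E060 in each replicate. Their log2 distances above the library median were 8.31 (SE 0.12; limma, BH-adjusted p = 5.15e-05) and 7.31 (SE 0.11; limma, adjusted p = 5.15e-05). The fragment P006, named a promoter, begins 119 bp beyond the end of E017, and its activities were 0.225, 0.263 and 0.263 on strand + and 0.0466, 0.0773 and 0.0957 on strand -. Of these neighbours, the one named a promoter was thus the weaker by a wide margin. The contrast rests on the names, since P006 lies 231 bp outside the span of Tsn. No gene start was listed inside either fragment, and whether E017 holds the start of Tsn was not tested.

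The next strongest cCRE lies in Tfcp2l1 itself. E060 (118647958 to 118648408) is 20.2 kb past the gene's start, inside its span. It reached 16.4, 15.9 and 14.3 on strand + and 7.57, 7.54 and 6.92 on strand -, which are 7.30 (SE 0.15) and 6.22 (SE 0.14) above the library median on the log2 scale (limma, adjusted p = 6.75e-05 and 7.13e-05). By contrast, the promoter fragments at the Tfcp2l1 start were weak alone. P011 (118627569 to 118628019), which contains the listed start, had activities of 0.0591, 0.0579 and 0.0483 on strand -, below the library median in each replicate (log2 difference -0.84, SE 0.16; limma, adjusted p = 0.0133), and no value on strand +. P012, which overlaps it by 27 bp on the side of the gene, had 0.104, 0.135 and 0.111 on strand + and 0.152, 0.156 and 0.159 on strand -. Its strand - was slightly above the median (log2 difference 0.66, SE 0.11; limma, adjusted p = 0.00974), and its strand + did not pass (adjusted p = 0.143).

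The cCREs closest to the Tfcp2l1 start were mixed. Upstream of it, E051, E053 and E054 lie at -4.96, -1.79 and -1.31 kb. E054 had 0.282, 0.186 and 0.239 on strand + and was higher than the library median there (log2 difference 1.24, SE 0.21; limma, adjusted p = 0.00918). E051 and E053 were below the median on strand -, with log2 differences of -1.17 (SE 0.22; limma, adjusted p = 0.0129) and -1.69 (SE 0.30; adjusted p = 0.0109), and did not pass the test on strand +. On the other side E055, E057 and E059 lie 5.84, 14.7 and 18 kb into the gene. E057 had 0.774, 0.740 and 0.788 on strand +, 2.97 (SE 0.12) above the library median on the log2 scale (limma, adjusted p = 2.36e-04), and 0.154, 0.132 and 0.140 on strand -. Strand - of E055 was lower than the median (log2 difference -0.63, SE 0.11; limma, adjusted p = 0.00977), while its strand + and both strands of E059 did not pass.

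The remaining cCREs among the 10 highest reached activities of about 3 to 5 and were spread over the locus. E084 (118873573 to 118874023), within Gli2, the gene of a transcription factor of Hedgehog signalling, had 5.23, 4.98 and 4.19 on strand + and 3.93, 3.38 and 3.05 on strand -. E301 (120529869 to 120530319), between genes and nearest to Marco, which encodes a scavenger receptor of macrophages, had 5.11, 5.03 and 4.55 on strand +. E151 (119299865 to 119300315) had 4.08, 4.65 and 4.79 on strand +. It and E166 (119398645 to 119399095; strand -: 3.77, 3.64 and 3.95) lie between genes and nearest to Inhbb, which encodes a subunit of activin B and inhibin B. E071 (118740997 to 118741447), 113 kb past the Tfcp2l1 start and between genes, had 3.17, 3.28 and 3.14 on strand +. All of these were higher than the library median by 5.02 to 5.64 on the log2 scale, with limma adjusted p from 5.84e-05 to 1.43e-04.

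At the low end, 5 cCRE fragment-strands were the lowest of those called below the median. E278- was the lowest, at 0.00806, 0.0216 and 0.0109, a log2 difference of -2.99 (SE 0.28; limma, adjusted p = 0.00194). E080+, E035-, E087- and E145- followed at -2.32, -2.31, -2.27 and -2.22. Their replicates spread widely, with SDs of log2 activity of 0.30 to 1.63 over these 5 fragment-strands. Requiring a 2-fold difference, E080+ and E145- no longer passed (limma treat, adjusted p = 0.109 and 0.188), and with trended robust variances E278- did not (limma, adjusted p = 0.0698).

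Promoters as a class were more unequal than cCREs. Each fragment entered with 1 value, the mean of its strands, or its single strand where only 1 had a value. Both strands had a value for 196 of the 224 cCREs and 22 of the 25 promoters. On the log2 scale the median promoter then lay above the median cCRE by 0.69, 0.44 and 0.33 in replicates 1, 2 and 3. The mean over replicates was 0.48 ± 0.19 (SD, n = 3). The difference had the same sign in every replicate. With 3 replicates a two-sided exact sign-flip permutation test cannot go below 0.25, which is the p it gave. The upper quartile differed more, at -0.44 ± 0.16 for promoters and -2.13 ± 0.13 for cCREs (SD, n = 3), while the lower quartiles were -4.23 ± 0.45 and -4.10 ± 0.38. The SD over fragments was 2.56 for the 25 promoters and 1.78 for the 223 cCREs with log2 values. In this measure an activity of 1 was passed by 5 of 25 promoters (20%) and 15 of 223 cCREs (6.73%), and 84 cCREs lay above the median promoter. The difference was 0.80 with means in place of medians. It was 0.71 with promoters read on the strand of their gene only. That reading takes strand + as the reference strand of the chromosome, which was not tested, and a gene start was listed inside 12 of the 25 promoters.

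By the higher of their strands, promoters fell into a strong and a weak set with a wide gap. The weakest of the 9 strong ones, P009, had a mean log2 activity of 0.82, and the strongest of the other 16, P032, had -1.53. The strong set lay at Nifk, Clasp1, Ralb, Tmem185b, Epb41l5, Ptpn4, Tmem177 and Cfap221, and the weak one included fragments at Tfcp2l1, Gli2, Inhbb, Tmem37, C1ql2 and Marco. P011, at Tfcp2l1, and P032, at the edge of the gap, had a value on strand - alone. On that strand the strong fragments P007, P021, P022, P024 and P025 had mean log2 activities of -0.58, -1.87, -0.86, -2.42 and -2.38, so the placement of P011 and P032 rests on a single strand. This split was seen in the values and was not tested.

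The strongest promoter was P007 (118321463 to 118321913), which contains the start of Nifk, the gene of a nucleolar protein that binds the proliferation marker Ki-67. It had 14.8, 17 and 17.6 on strand + and 0.613, 0.680 and 0.716 on strand -. Tmem185b, which encodes a transmembrane protein, followed with P019 (119525784 to 119526234) at 7.94, 8.71 and 9.42 on strand +, the strand with a value. Only E017 among all other fragments reached activities as high as P007 in replicates 2 and 3. In replicate 1 strand + of E060 was also above it.

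P022 (119837481 to 119837931), at an end of the span of Ptpn4, a protein tyrosine phosphatase gene, had 6.74, 7.28 and 7.93 on strand +. P018 (119504719 to 119505169), at the start of Ralb, which encodes a small GTPase of the Ras family, had 5.68, 6.57 and 7.43 on strand + and 0.860, 1.01 and 1.30 on strand -. These promoters did not overlap between their strands in any replicate. P010 (118389097 to 118389547) lies inside the span of Clasp1, the gene of a microtubule plus-end protein, next to its end. It was strong on both strands, at 4.64, 4.86 and 4.85 on strand + and 4.84, 5.21 and 5.42 on strand -, the latter slightly higher in each replicate.

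Weaker but still above 1 on a strand were 4 further promoters. P024 (119913107 to 119913557), at the start of Tmem177, a gene for a mitochondrial protein, had 2.36, 2.57 and 3.26 on strand +. P025 (119997154 to 119997604), over the starts of Cfap221, a cilia gene, and of Gm33817 on the opposite strand, had 2.36, 2.45 and 2.67 on strand +. P021 (119648917 to 119649367), at an end of the span of Epb41l5, a gene of a FERM-domain protein of the cytoskeleton, had 1.67, 2.44 and 3.12 on strand +. Replicate 1 was the lowest of P021 on strand + and its highest on strand -. P009, which overlaps P010 by 35 bp, was the exception in direction, with 0.293, 0.228 and 0.227 on strand + and 1.76, 1.63 and 1.90 on strand -.

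Among the weak promoter fragments besides those of Tfcp2l1, P013, at the start of Gli2, had 0.196, 0.210 and 0.218 on strand + and 0.0894, 0.112 and 0.143 on strand -. P017, at Inhbb, had at most 0.0832 on either strand, P031, at C1ql2, a gene of a secreted C1q-like protein, at most 0.0634, and P033, at Marco, at most 0.0796. P027, at Tmem37, was below the library median on both strands, with log2 differences of -1.31 (SE 0.18; limma, adjusted p = 0.00532) and -0.71 (SE 0.11; adjusted p = 0.00770). P026, at ends of the spans of Cfap221 and of the secretin receptor gene Sctr, averaged 0.0393 ± 0.0292 on strand + and 0.0466 ± 0.0422 on strand - (SD, n = 3). P032, at Gm46154, and P020, at 3830432H09Rik, were above the median on a strand, at 0.379 ± 0.194 on strand - and 0.173 ± 0.0148 on strand + (SD, n = 3). P003, P014, P015, P016 and P023 did not pass the test as higher than the median on either strand. These fragments cover no listed gene start, but neither do P009, P010, P021 and P022 of the strong set.

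**Figure D2:**
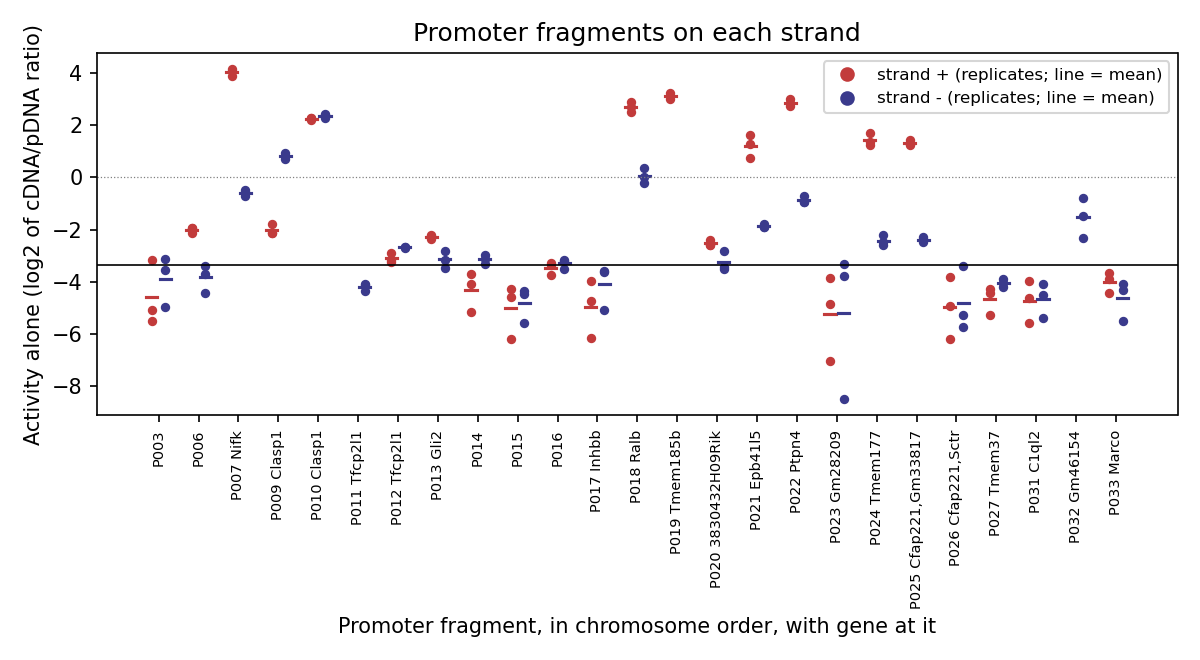
Activity of each promoter fragment alone (log2 of the cDNA/pDNA ratio, vertical axis) in the 3 replicates (points) with their mean (short line), on strand + (red) and strand - (blue). Fragments stand in chromosome order with the gene at each; the solid line is the library median and the dotted line an activity of 1, which is passed by all replicates of a strand in 9 fragments.

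Base composition did not separate these promoters in an evident way. Over the 11 fragments with a RefSeq window, Pearson's r between the window's GC content and the log2 activity of the higher strand was 0.11, and Spearman's rho was -0.05. P011, at Tfcp2l1, and P019, at Tmem185b, entered with strand - and strand +, the only strands with a value. Whether these are their higher strands is not known. The windows ranged from 46.0% GC at 3830432H09Rik to 73.3% at Tmem185b. For the ratio of observed to expected CpG, r was 0.45 and rho 0.60. The lowest ratios, 0 at Marco and 0.126 at 3830432H09Rik, both belonged to weak fragments, but Gli2, with a ratio of 0.830, was weak as well. These correlations are descriptions over few fragments of 1 locus. The base composition of cCREs was not analysed here.

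The strand on which a fragment stood often mattered. For each of 217 fragments with log2 values on both strands, the difference between strands was taken within each replicate and tested with limma. The strands differed for 124 (57.1%), of which 69 were higher on strand + (31.8%) and 55 on strand - (25.3%). Among cCREs 113 of 195 differed, 61 of them in favour of strand +, and among promoters 11 of 22, 8 of them in favour of strand +. The count dropped to 75 without replicate 3, and 43 fragments differed by more than 2-fold by limma's treat. The labels and headers do not say whether strand + is the reference strand of the chromosome or the direction of the element.

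Even so, activity on one strand went with activity on the other. The strands correlated with r = 0.70 over 195 cCREs and 0.79 over 22 promoters, as a description of fragments that share their samples. The median size of the strand difference was 0.84 on the log2 scale for cCREs and 0.79 for promoters. Both strands were higher than the library median in 51 of the 195 cCREs and in 8 of the 22 promoters. In 29 of the 195 cCREs and 0 of the 22 promoters a strand was higher and the other lower. The promoters are few, and a difference between the classes in these counts was not tested. Among fragments with a strand averaging above an activity of 1, both strands did so in 10 of 21 cCREs and 2 of 8 promoters. Their median strand difference was 1.00 for these cCREs and 3.40 for these promoters.

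**Figure D3:**
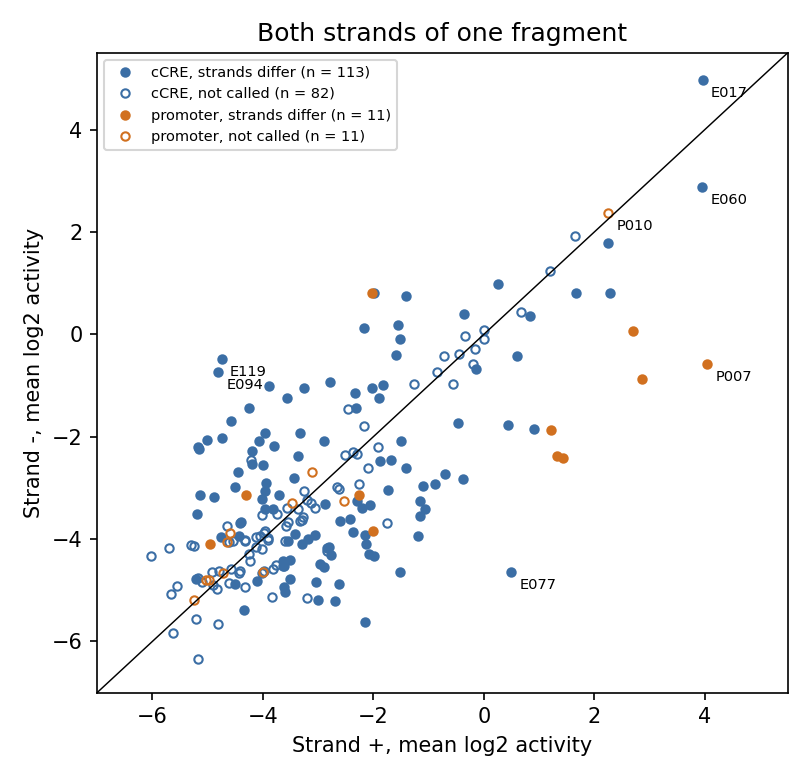
Mean log2 activity of each fragment alone on strand + (horizontal axis) and strand - (vertical axis), for 195 cCREs (blue) and 22 promoters (orange). Filled points differ between strands by limma at an adjusted p under 0.05, and the line marks equality. The strongest cCREs, E017 and E060, are both filled points, E017 being higher on strand - and E060 on strand +. They lie closer to the line than most strong promoters, and most strong promoters lie below it.

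The largest strand difference belonged to a cCRE between genes. E077 (118768807 to 118769257), 141 kb past the Tfcp2l1 start, had 1.26, 1.41 and 1.57 on strand + and 0.0223, 0.0541 and 0.0534 on strand -, a log2 difference of 5.13 (SE 0.28; limma, adjusted p = 0.00207). E119 (119093683 to 119094133) had the opposite direction, with 0.0258, 0.0604 and 0.0330 on strand + and 0.735, 0.683 and 0.732 on strand -. E094 (118975861 to 118976311), within Gli2, had 0.0133, 0.0784 and 0.0431 on strand + and 0.534, 0.563 and 0.713 on strand -. In each of these cCREs a strand was below the library median in every replicate while the other was several times above it. The log2 differences of E119 and E094 were -4.27 (SE 0.32; limma, adjusted p = 0.00342) and -4.07 (SE 0.56; adjusted p = 0.0105). E087, within Gli2, and E033, within Clasp1, differed by 3.48 (SE 0.27; limma, adjusted p = 0.00346) and 3.13 (SE 0.42; adjusted p = 0.0102) in favour of strand +. Without replicate 2 the difference of E033 was 2.94 and did not pass (limma, adjusted p = 0.0570).

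Many of the strong promoters were strong on a single strand. The log2 difference in favour of strand + was 4.62 (SE 0.08) for P007, 3.86 (SE 0.09) for P024, 3.73 (SE 0.09) for P022, 3.70 (SE 0.08) for P025 and 3.10 (SE 0.25) for P021, with limma adjusted p of 5.59e-04 for the first 4 and 0.00372 for P021. P018 differed by 2.65 (SE 0.10; limma, adjusted p = 0.00131). P009 had the reverse direction, at -2.83 (SE 0.13; limma, adjusted p = 0.00159), and P010 did not pass, at -0.11 (SE 0.08; adjusted p = 0.356). With trended robust variances P010 did pass (limma, adjusted p = 0.0366).

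How promoter activity relates to the direction of the gene depends on how the deposited strand is read. For 8 promoter fragments, both strands were measured and the listed starts lay on 1 strand. If strand + is read as the reference strand, the gene's own strand was lower than the other by a median log2 difference of -0.65, -0.63 and -0.53 in the 3 replicates, or -0.60 ± 0.06 (SD, n = 3; two-sided exact sign-flip permutation test, p = 0.25, the smallest it can give). Read as deposited, strand + was higher than strand - by 0.94 ± 0.14 over the same fragments (SD, n = 3; exact permutation p = 0.25). P007 at Nifk, a gene on the + strand, and P018 and P024 at Ralb and Tmem177, genes on the - strand, were all stronger on the deposited strand +. The remaining fragments, P013, P017, P020, P031 and P033, all belong to the weak set, and the medians include them. Of the 6 fragments at genes on the - strand, 3 passed limma's test as higher on the deposited strand + and 1 as lower, and of the 2 at genes on the + strand 1 passed as higher and 0 as lower. Which reading applies was not tested.

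The typical cCRE had a similar activity in most 500 kb windows, while finer windows differed more. In windows of 500 kb from the Tfcp2l1 start, the median log2 activity of cCREs lay between -3.62 and -3.13 in the 5 windows with at least 10 cCREs, a range of 0.49, while the SD of a window's median over replicates was 0.14 to 0.33. The outermost window, 500 to 1000 kb before the start, held 5 cCREs and a median of -0.67 ± 0.08 (SD of the replicate medians, n = 3). All of these 5, E002, E004, E005, E007 and E008, had a strand higher than the library median, against 115 of all 223 cCREs (51.6%). E004 and E005 overlap by 249 bp, so they are not separate sequences. Over all 223 cCREs, the distance from the Tfcp2l1 start, irrespective of side, had r = -0.06 and rho = -0.02 with log2 activity. The range between window medians was 0.79 with the higher strand in place of the mean and 1.03 with windows of 250 kb. In the 250 kb windows with at least 10 cCREs, those with a strand called higher made up from 21.4% (3 of 14, 1000 to 1250 kb past the start) to 71.9% (23 of 32, 500 to 750 kb past it).

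Neighbouring cCREs were somewhat alike. Neighbours here are consecutive cCREs in chromosome order at any distance, and they include the overlapping cCREs described next. The median absolute log2 difference between neighbouring cCREs was 1.33 ± 0.27, against 1.47 ± 0.27 over all pairs (SD, n = 3), a gap of -0.14 ± 0.04 that had the same sign in each replicate. The correlation of neighbours was 0.12 ± 0.01 (SD, n = 3) over 222 pairs, as a description.

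Even overlapping fragments could differ widely. In 15 pairs of fragments that overlap by 15 to 286 bp, 28 comparisons on the same strand had absolute log2 differences of 0.00 to 4.37, with a median of 1.38. E241 and E242, the pair with the largest overlap, were alike on strand +, at -2.20 ± 0.14 and -2.03 ± 0.13, and unlike on strand -, at -3.38 ± 0.16 and -1.04 ± 0.09 (log2 activity, SD, n = 3). E031 and E032, within Clasp1 and overlapping by 62 bp, differed most. On strand - E032 had a log2 activity of 0.08 ± 0.22 and E031 of -4.29 ± 0.28 (SD, n = 3).

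Genes along the locus differed in how many of their cCREs had a strand called higher than the library median. That median lies below the entry eempty, so the call is a place within the library and not activity as such. Of 7 cCREs within Tfcp2l1, 5 had a strand higher than the library median, and their median log2 activity was -2.33 ± 0.14 (SD of the replicate medians, n = 3). The 22 within Gli2 had a median of -3.97 ± 0.30, with 9 of them higher on a strand, and the 21 within Clasp1 had -3.38 ± 0.18, with 10 higher. Ptpn4 had 1 such cCRE of 6, Ralb 2 of 8 and Epb41l5 1 of 4, while Steap3, the gene of a ferrireductase, had 6 of 8. Against the share of 51.6% over all cCREs, Tfcp2l1 and Steap3 were above it and Ptpn4, Ralb and Epb41l5 below, each on few fragments.

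A group of 16 cCREs overlaps only genes of the annotation that are not protein-coding, such as Gm41934, Gm46144 and Gm41937. E031, E091 and E206 overlap a gene of each kind and are counted with the protein-coding group. Their mean log2 activities were -3.19, -4.14 and -4.36. The 16 had a median log2 activity of -1.67, -1.76 and -1.71 in the 3 replicates. It was -3.52, -3.24 and -3.16 for the 118 between genes and -3.99, -3.40 and -3.46 for the 89 within or across a protein-coding gene. The 16 had the highest of these medians in every replicate, and 14 of the 16 (87.5%) had a strand higher than the library median. That share was 50.8% between genes, 46.1% within or across protein-coding genes and 51.6% over all cCREs. E125 and E173, among the 16, contain listed starts of such non-coding genes, and so does E031 outside the 16. Of these 16, 5 lie in Gm41937 alone, and the pair E241 and E242 overlap. The comparison was chosen after the values were seen and carries no test.

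**Figure D4:**
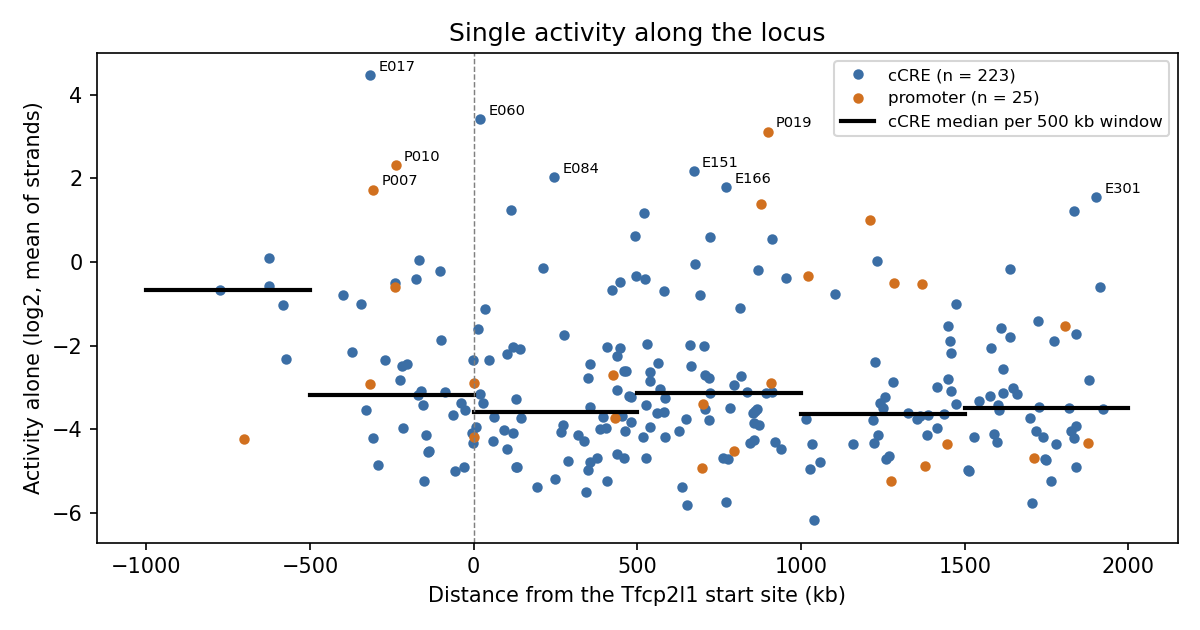
Activity of each fragment alone (log2, mean of its strands, vertical axis) against its distance from the Tfcp2l1 start site in kb (horizontal axis, dashed line at 0), for 223 cCREs (blue) and 25 promoters (orange). Black lines are cCRE medians in windows of 500 kb, which lie between -3.62 and -3.13 except for the first window with 5 cCREs.

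A separate readout of the same cCREs comes from constructs in which each was paired with a promoter. The boost index is the log2 activity of such a pair minus the median over all pairs with the same promoter in the same orientation, taken within each replicate and averaged here over at least 3 promoters per cCRE. Over 168 cCREs, single activity and boost index correlated with r = 0.89 and rho = 0.75, and with r = 0.87, 0.87 and 0.88 within replicates. With strands matched, r was 0.80 over 267 fragment-strands. Both readouts share the cCRE and the transfected cells, so this is a description.

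The order at the top was nearly the same in both readouts. E017 and E060 ranked 1 and 2 in each, with boost indices of 4.36 ± 0.25 over 19 promoters and 4.15 ± 0.28 over 21 promoters (SD, n = 3). E301, E071, E166 and E294 followed in the boost index, at 3.02 to 3.55, and were ranked 3 to 6 alone. The ranks are among the 168, which do not include E084 and E151. The 11 cCREs with a single activity above 1 had boost indices of 1.11 to 4.36, with a median of 3.02. The other 157 had a median of -0.30 and reached 2.74. Among those 157, r was still 0.80. Among cCREs with a boost index above 2, E015, nearest to Tsn, rose most in rank. Its boost index was 2.61 ± 0.30 over 10 promoters (SD, n = 3), which ranked 9. Its mean log2 activity alone was -1.0 ± 0.10, which ranked 26. Other cCREs shifted more. E267 ranked 32 alone and 145 in the boost index, at -0.78 ± 0.28 over 17 promoters. E076 ranked 161 alone and 39 in the boost index, at 0.60 ± 0.29 over 4 promoters.

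**Figure D5:**
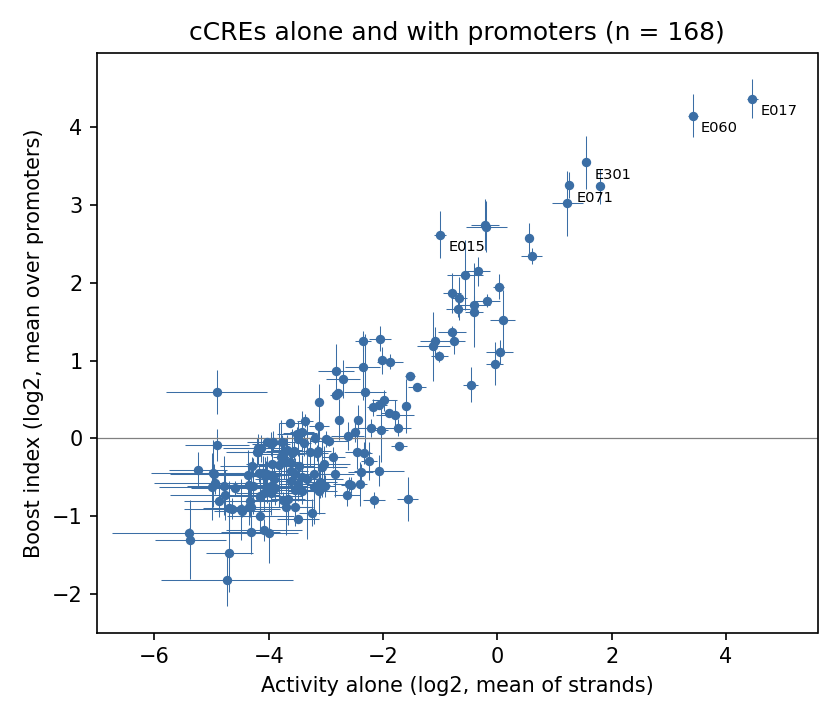
Boost index of each of 168 cCREs (log2, mean over the promoters it was paired with, vertical axis) against its activity alone (log2, mean of strands, horizontal axis). Points are means and bars SDs over 3 replicates. E017 and E060 are highest on both axes, and E015 has a boost index of 2.61 at a single activity of -1.0.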

How the data were processed

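Activities of constructs in the Tfcp2l1 Upstream libraries were analysed for 3 cDNA samples. The authors deposited them as a linear ratio of cDNA to plasmid DNA barcodes per construct and replicate, with the activity of each fragment alone beside every pair. The submitters' processing notes name Bowtie2 and the mm10 build. Barcode filters, the scaling of the ratio and read depth are not given in the sources used here, so no counting interval could be set. Repeated entries of a fragment-strand agreed within a relative 4.91e-07 and were counted once. A further 3 columns of means were not used.

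The tests on log2 activities used limma 3.58.1 (R 4.3.3) and set them against the library median of each replicate or compared the strands within a replicate, with moderated variances and BH adjustment over all fragment-strands or fragments tested. The strand fit pairs the strands because both were measured in the same sample. A fragment-strand with a 0 was left out, with a pseudocount of 0.01 as an alternative. P-values measure the spread between 3 biological replicates, which were transfected with the same plasmid pool. Other comparisons are medians per replicate with exact sign-flip permutation tests. On simulated data the test against the median recovered 81% of log2 changes of 1 and 93% of those of 2, with 2.79% of calls false. The strand test recovered 62% and 90%, with 2.56% false. The simulation drew independent errors and left all other fragments without an effect, so its rates need not hold for these data. Python 3.11.15, numpy 2.4.6, pandas 2.3.3, scipy 1.17.1 and matplotlib 3.10.9 were used.

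Promoter windows, gene spans and gene strands are from RefSeq (GRCm38.p6), which gave no exons. Motifs were searched on both strands. Besides those shown, the motifs searched were TCAAGGTCA and its core AAGGTCA for nuclear receptors, GGGTGTGG for Klf factors, CATTGTT for Sox, ATGCAAAT and its variant ATGCTAAT for Pou factors, CCGGAAGT for Ets, TGACGTCA for the cAMP response element, TGACTCA for AP-1, AAGATGGC for Yy1, GGAATG for Tead, CAGCAGG for Zic and the paired half-sites of Tfcp2l1. Named fragments are all promoters, the 10 highest cCRE fragment-strands called above and the 5 lowest called below the median, the 10 largest called strand differences with 1 direction in all 3 replicates, the cCREs nearest the Tfcp2l1 start and overlapping fragments. Fragments and lists were chosen with earlier results of these data known.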

Additional observations from a re-analysis of the deposited data

How the results depend on the processing

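The calls against the library median depended on the reference. Without centring, against an activity of 1, 36 fragment-strands were higher and 406 lower. Requiring a 2-fold difference left 115 and 9, and the entry eempty as baseline, added after seeing the data, gave 128 and 273. Leaving out a replicate gave 171 to 191 higher and 106 to 169 lower. For the strands, 43 fragments differed by more than 2-fold, and 75 to 107 differed with a replicate left out. The fit with no replicate block called 107 in place of 124, and it changed the call of P017, which no longer passed, and of P020, which did. The difference between promoters and cCREs was 0.80 with means and 0.38 to 0.56 with a replicate left out. It was 0.71 with promoters on the strand of their gene, if strand + is the reference strand. The difference of gene strand and other strand was -0.42 with means, -0.64 to -0.58 with a replicate left out, and 0.94 as deposited + against -, with the sign turned by the construction of that alternative. The range of window medians was 1.03 with 250 kb windows, 0.79 with the higher strand and 0.36 to 0.44 with a replicate left out. The neighbour gap stayed between -0.16 and -0.12. The correlation with the boost index was 0.80 with matched strands and 0.75 as Spearman's rho, and the one with GC content was 0.11 by Pearson and -0.046 by Spearman. The cause of these changes was not tested, apart from the fewer samples or the stricter threshold that some alternatives impose. Of the values of single named fragments under alternatives, 299 kept direction and call, 15 lost and 7 gained the call, and 3 changed direction without a call. These were strand differences with a replicate left out, which ran from -1.96 to 0.12 for P003, from -0.81 to 0.68 for P023 and from -0.15 to 0.0105 for P031.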

Other observations

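Promoter fragments also had a readout next to cCREs, the median log2 activity over all pairs in which they followed a cCRE. Over 39 promoter fragment-strands with at least 10 such pairs, it correlated with activity alone with r = 0.95 and rho = 0.81, as a description. P007 on strand + had 4.04 alone and a median of 3.87 over 54 pairs, and P019 on strand + had 3.12 and 3.13 over 15 pairs. The largest gap was that of P023 on strand +, with -5.25 alone and -2.35 over 11 pairs. P023 on strand - had -5.20 and -3.29 over 12 pairs. The values of P023 alone spread widely over replicates, with SDs of log2 activity of 1.63 on strand + and 2.86 on strand -. In the other direction, P006 on strand + had -2.0 ± 0.13 alone (SD, n = 3) and -4.28 over 119 pairs. P020 on strand + had -2.53 ± 0.12 alone (SD, n = 3) and -4.02 over 126 pairs. The promoter at Tfcp2l1, P011 on strand -, had -4.19 alone and -4.22 over 41 pairs.

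Pairs of cCREs gave a further readout. Over 310 cCRE fragment-strands in the first place of a pair, the median log2 activity of their pairs correlated with their activity alone with r = 0.77, and over 347 in the second place with r = 0.83. The entry eempty had activities of 0.0460, 0.0658 and 0.0654 where it was listed with itself, lower than alone in each replicate.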
